A study of Mus musculus with 8 samples.

Results

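Organic anion transporting polypeptides (OATPs), the products of the *Slco* genes, were followed in the livers of males that lacked *Fxr*, with and without *Bcl6* in hepatocytes. The set was 6 genes, *Slco1a1*, *Slco1a4*, *Slco1b2*, *Slco2a1*, *Slco2b1* and *Slco3a1*, taken by symbol from the 24940 genes of the count table. All 6 passed the count filter and were among the 12340 genes tested. The table held 9 further *Slco* genes, none of which passed that filter.

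The study asked what FXR, the bile acid receptor, and BCL6, a transcriptional repressor, do together in bile acid homeostasis. Liver mRNA was sequenced from 4 FxrKO males, in which *Fxr* was deleted in the whole body, and from 4 Bcl6LKOFxrKO males, which in addition carried Albumin-Cre, a transgene that is active in hepatocytes. Mice of both groups were C57BL/6, homozygous for floxed *Bcl6* and homozygous for the *Fxr* deletion, so Cre was the difference between them. The methods describe mice that were fed freely or fasted for 4 hours, with no statement of which applied to these livers, and the sources used here give no age. Livers of mice with intact *Fxr* were not analysed here, and loss of *Bcl6*, presence of Cre and anything that followed from them in the liver cannot be told apart.

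OATPs are uptake carriers that exchange anions across the plasma membrane without sodium. In hepatocytes they draw bile acids, conjugated bilirubin, thyroid hormones, steroid sulfates and many drugs out of portal blood, beside the sodium-dependent bile acid carrier NTCP. In mouse liver *Slco1a1* is known as a male-predominant gene and *Slco1a4* as a female-predominant one.

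The promoters of the 3 tested *Slco1* genes are shown because these genes are neighbours on chromosome 6 and moved differently. Each window (RefSeq, GRCm38.p6) runs from 250 bases before to 50 bases after the start of the transcript that was counted. Capitals mark matches on either strand to TTCNNNGAA (the core shared by STAT5 and BCL6 sites) and to AGGTCA or AGTTCA (nuclear receptor half-sites), motifs that do not overlap in these windows.
Slco1a1, chr6:141946913-141947212, minus strand: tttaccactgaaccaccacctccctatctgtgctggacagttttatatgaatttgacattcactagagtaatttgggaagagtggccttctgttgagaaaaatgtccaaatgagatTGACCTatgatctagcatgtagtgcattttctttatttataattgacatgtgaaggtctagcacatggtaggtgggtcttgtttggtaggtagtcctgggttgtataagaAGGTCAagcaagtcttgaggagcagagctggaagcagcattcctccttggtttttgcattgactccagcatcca
Slco1a4, chr6:141856171-141856470, minus strand: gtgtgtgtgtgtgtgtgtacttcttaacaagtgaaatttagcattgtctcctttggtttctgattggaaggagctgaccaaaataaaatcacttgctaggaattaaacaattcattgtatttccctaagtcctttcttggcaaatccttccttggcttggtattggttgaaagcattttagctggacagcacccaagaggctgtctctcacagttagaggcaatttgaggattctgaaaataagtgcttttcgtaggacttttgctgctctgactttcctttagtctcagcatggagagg
Slco1b2, chr6:141629268-141629567, plus strand: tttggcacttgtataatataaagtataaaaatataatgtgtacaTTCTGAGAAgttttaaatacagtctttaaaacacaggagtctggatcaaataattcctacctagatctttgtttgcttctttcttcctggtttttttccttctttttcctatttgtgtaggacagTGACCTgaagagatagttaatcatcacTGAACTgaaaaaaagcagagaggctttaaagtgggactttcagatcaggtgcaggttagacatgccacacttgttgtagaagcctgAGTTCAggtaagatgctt
The *Slco1a1* window held AGGTCA in 2 places, beginning 134 and 24 bases before the start. The *Slco1b2* window held TTCNNNGAA once (as TTCTGAGAA, 206 bases before the start), AGGTCA once and AGTTCA in 2 places. None of the 3 motifs was found in the *Slco1a4* window or in that of *Slco2a1* (chr9:103008237-103008536, plus strand). The *Slco2b1* window (chr7:99695760-99696059, minus strand) held TTCNNNGAA once, as TTCCGGGAA. Of all 32851 windows in the reference table, 8.3% held TTCNNNGAA, 16.3% AGGTCA and 14% AGTTCA. These matches describe letters in a window and not occupied sites.

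The libraries held between 7586241 and 11839503 counts on genes, so a floor of 3 counts stood at 0.253 to 0.395 CPM of these totals. CPM here are counts put on one library size, and the floor reflects counting error alone. *Bcl6* fell by 2.72 on the log2 scale (SE 0.40, adjusted p = 0.00123 from edgeR), with no overlap between the genotypes. Its values were 56.3, 65.2, 21.2 and 55.6 CPM in FxrKO livers 1 to 4. Bcl6LKOFxrKO livers 5 to 8 had 11.9, 4.61, 5.55 and 7.72 CPM of it. The genotypes separated on the first principal component, which held 71.7% of the variance. Of the tested genes, 16.2% were called higher and 13.5% lower in Bcl6LKOFxrKO livers at an adjusted p under 0.05, or 29.7% in all. Scaled by total counts alone in place of TMM, the median fold change of all genes moved by -0.16 (log2) and the share of higher genes among those called went from 54.5% to 32.3%. Of 7 hepatocyte markers, 2 rose and 2 fell, and their sum was 54800 to 68600 CPM in FxrKO and 145000 to 162000 CPM in Bcl6LKOFxrKO livers, most of it *Alb*. Of 8 stellate cell markers, 7 rose, with sums of 157 to 222 CPM against 341 to 398 CPM. Cholangiocyte markers (2 of 4 tested rose) summed to 41.7 to 67.1 CPM against 75.5 to 135 CPM, most of it *Spp1*. T cell markers (1 tested, *Lck*, which rose) summed to 1.87 to 2.46 CPM against 5.04 to 7.99 CPM. The listed T cell marker *Trac* was absent from the count table, and no marker present there was at 0 in all livers. The part of these shifts in the results below was not tested, and in whole liver fewer cells of a type and less RNA per cell cannot be told apart.

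In Bcl6LKOFxrKO livers 3 OATP genes fell, 1 rose and 2 did not pass the test. *Slco1a1* was reduced from one of the best-expressed members to the lowest of the 6, and *Slco1b2*, the most abundant, to 28.9% of its FxrKO level. *Slco2b1* fell slightly and *Slco2a1*, the prostaglandin carrier, rose. The groups of the 4 called members did not overlap, whereas 31.3% of all tested genes were without overlap. The median log2 fold change of the 6 members was -0.27, against 0.01 over all tested genes. With an added requirement of an absolute log2 fold change above 0.5, which 14.1% of genes passed as higher and 9.84% as lower, *Slco2a1* was the 1 member called higher and *Slco1a1* and *Slco1b2* the 2 called lower.

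*Slco1a1* encodes OATP1A1, a basolateral carrier of bile acids, steroid conjugates and other organic anions (NM_013797, mm10 chromosome 6 from 141907281 to 141946962, minus strand). Its normalised counts were 200, 296, 297 and 252 CPM in FxrKO livers 1 to 4, and 1.71, 2.31, 1.17 and 0.726 CPM in Bcl6LKOFxrKO livers 5 to 8. Every Bcl6LKOFxrKO liver was far below every FxrKO liver, and each remained above the floor, with 8 to 19 counts where the FxrKO livers had 1924 to 2764. The mean fell from 261 ± 45.8 to 1.48 ± 0.683 CPM (SD, n = 4), a log2 fold change of -7.50 (SE 0.26, 95% limits -8.06 and -6.93, adjusted p = 7.85e-10 from edgeR) or 181-fold lower. Only 19 of the 12340 tested genes had a larger fitted fall. The coefficient of variation was 17.5% among FxrKO livers and 46.2% among Bcl6LKOFxrKO livers, where few counts remained.

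*Slco1b2* encodes OATP1B2, the rodent counterpart of the human hepatocyte carriers OATP1B1 and OATP1B3 (NM_020495, chromosome 6 from 141629518 to 141686646, plus strand). FxrKO livers 1 to 4 had 1000, 1110, 1230 and 1250 CPM, and Bcl6LKOFxrKO livers 5 to 8 had 362, 309, 415 and 240 CPM. The highest double mutant liver thus lay well under the lowest FxrKO liver. From 1150 ± 115 to 332 ± 74.8 CPM (SD, n = 4), its log2 fold change was -1.79 (SE 0.16, 95% limits -2.15 and -1.43, adjusted p = 5.2e-06 from edgeR), or 3.46-fold lower.

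*Slco1a4* encodes OATP1A4, a carrier of bile acids and cardiac glycosides in hepatocytes and at the blood-brain barrier (NM_030687, chromosome 6 from 141805440 to 141856220, minus strand). It lies between the 2 *Slco1* genes that fell. Its values were 54.2, 43.9, 61.4 and 91.7 CPM in FxrKO livers 1 to 4 and 94.3, 48.9, 79.4 and 63.7 CPM in Bcl6LKOFxrKO livers 5 to 8. The groups overlapped, and the spread within each genotype exceeded the difference between their means (62.8 ± 20.6 and 71.6 ± 19.6 CPM, SD, n = 4). The log2 fold change was 0.19 (SE 0.24, adjusted p = 0.602 from edgeR), and its 95% limits, -0.35 and 0.73, cover a modest change in either direction and do not reach the value of *Slco1b2*.

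*Slco2b1* encodes OATP2B1, a carrier of sulfated steroids and drugs in liver and intestine (NM_001252531, chromosome 7 from 99657804 to 99695809, minus strand). It was at 183, 221, 214 and 193 CPM in FxrKO livers and at 151, 177, 150 and 131 CPM in Bcl6LKOFxrKO livers. The highest Bcl6LKOFxrKO liver was just under the lowest FxrKO liver. The log2 fold change was -0.41 (SE 0.12, adjusted p = 0.021 from edgeR). That call rested on the livers included: the adjusted p from edgeR was 0.0669 without FxrKO liver 2, 0.0578 without FxrKO liver 3 and 0.0529 without Bcl6LKOFxrKO liver 5, with log2 fold changes of -0.37, -0.39 and -0.41. An antisense gene, *Gm15635*, overlaps its exons (6.1% of the 100-base windows of the transcript are shared), and the stated counting options name no strand, so reads of the pair cannot be separated.

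*Slco2a1* encodes the prostaglandin transporter PGT, which takes up prostaglandins for their breakdown and is expressed by endothelial and other cells (NM_033314, chromosome 9 from 103008489 to 103087849, plus strand). FxrKO livers 1 to 4 had 48.4, 60.6, 50.8 and 37 CPM and Bcl6LKOFxrKO livers 5 to 8 had 102, 113, 76.8 and 84.1 CPM. Every Bcl6LKOFxrKO liver was above every FxrKO liver. The mean rose 1.91-fold, from 49.2 ± 9.7 to 94 ± 16.5 CPM (SD, n = 4), with a log2 fold change of 0.93 (SE 0.16, 95% limits 0.59 and 1.28, adjusted p = 0.000836 from edgeR). Of all tested genes, 16.2% were called higher and 13.5% lower. Beside *Slco2a1*, 1 of 9 liver endothelial markers rose (*Stab2*, a scavenger receptor of sinusoidal endothelium), 0 fell, and their median log2 fold change was 0.28. The markers summed to 206 to 282 CPM in FxrKO and 265 to 338 CPM in Bcl6LKOFxrKO livers (exact permutation p = 0.0857, two-sided, n = 4 per group). Macrophage markers, of which 1 of 8 rose (*Cd68*), summed to 343 to 472 CPM and 418 to 755 CPM (exact permutation p = 0.257). The summed markers of stellate cells (7 of 8 rose, median log2 fold change 0.98), cholangiocytes (2 of 4 rose, median 0.89) and T cells were higher in Bcl6LKOFxrKO livers, each with an exact permutation p of 0.0286. Most of the cholangiocyte sum was *Spp1* (43.4 ± 7.51 against 87.2 ± 25.1 CPM, SD, n = 4). Of the tested cholangiocyte markers that were not called, *Epcam* had a log2 fold change of 0.78 and *Sox9* one of -0.81. The part of any of these cell types in the rise of *Slco2a1* was not tested.

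*Slco3a1*, a widely expressed member that also carries prostaglandins (NM_023908, chromosome 7 from 74281916 to 74554780, minus strand), had few reads. Its values were 5.2, 3, 3.33 and 4.16 CPM in FxrKO livers and 2.92, 4.37, 4.19 and 3 CPM in Bcl6LKOFxrKO livers. The groups overlapped throughout, and the log2 fold change was -0.13 (SE 0.24, 95% limits -0.66 and 0.39, adjusted p = 0.721 from edgeR). Without FxrKO liver 1 it was 0.03, so at 24 to 50 counts a liver its direction could not be read.

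**Figure D1:**
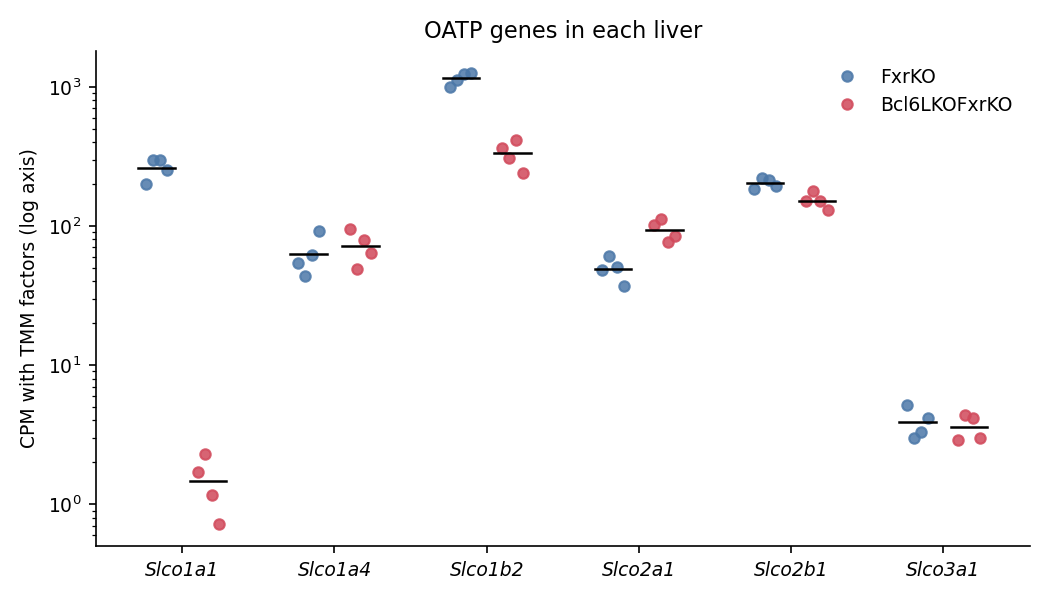
Normalised counts (CPM with TMM factors, log axis) of the 6 OATP genes, with 1 point for each liver and a bar at the mean of each genotype. *Slco1a1*, *Slco1b2* and *Slco2b1* are lower in all 4 Bcl6LKOFxrKO livers than in any FxrKO liver, *Slco2a1* is higher in all 4, and the points of *Slco1a4* and *Slco3a1* overlap.

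Exact permutation tests of the CPM of single genes, two-sided and enumerating 70 orderings, gave p = 0.029 for each of the 4 called members, the smallest p that 4 livers against 4 allow. Groups that do not overlap always give this p, so it restates the lack of overlap given above. The same exact permutation tests gave p = 0.57 for *Slco1a4* and p = 0.63 for *Slco3a1*. All directions held with RLE factors, total counts alone, the 50 most counted genes left out, DESeq2 and limma voom.

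**Figure D2:**
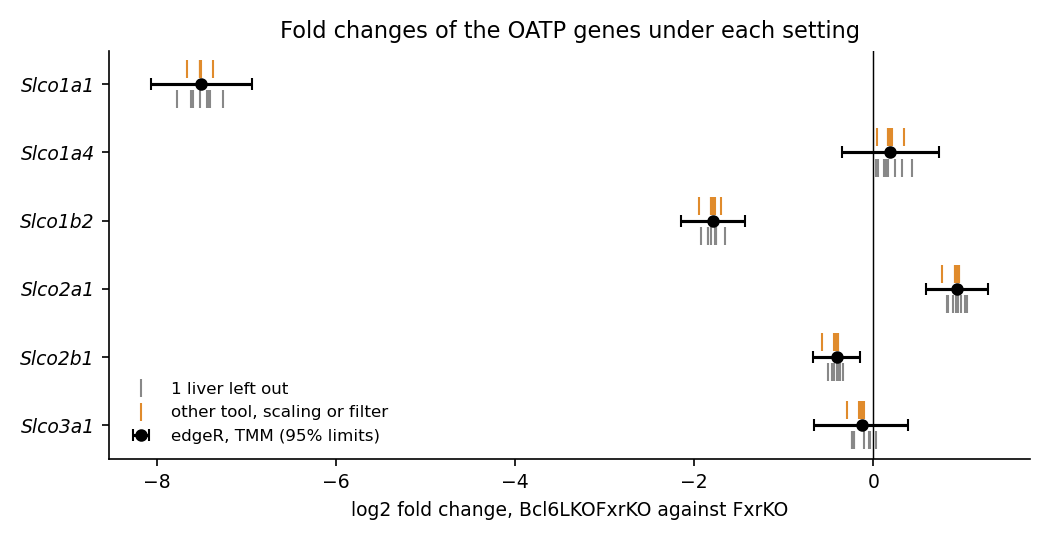
Log2 fold changes (Bcl6LKOFxrKO against FxrKO, horizontal axis) of the 6 OATP genes. Black points are the edgeR values with 95% limits, grey ticks leave out 1 liver each and orange ticks use another tool, scaling or filter. The ticks of *Slco1a1* stay between -7.77 and -7.26 and those of *Slco1b2* between -1.94 and -1.66, while those of *Slco3a1* reach 0.03.

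Read per length, as RPKM from the deposited transcript lengths with TMM factors, the OATP genes of FxrKO livers were ordered *Slco1b2* (349 ± 35.1 RPKM), *Slco1a1* (66.2 ± 11.6), *Slco2b1* (44.4 ± 3.96), *Slco1a4* (16.3 ± 5.34), *Slco2a1* (12.2 ± 2.42) and *Slco3a1* (0.838 ± 0.21, SD, n = 4). Neighbours in that order kept apart, except that *Slco1a4* and *Slco2a1* overlapped. In Bcl6LKOFxrKO livers the order was *Slco1b2* (101 ± 22.7 RPKM), *Slco2b1* (33.4 ± 4.15), *Slco2a1* (23.4 ± 4.1), *Slco1a4* (18.6 ± 5.09), *Slco3a1* (0.772 ± 0.164) and *Slco1a1* (0.374 ± 0.173, SD, n = 4), with the only overlap between *Slco2a1* and *Slco1a4*. *Slco1a1* thus went from the second place to the last, below *Slco3a1* in all 4 livers.

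The summed level of the 6 genes was 423, 487, 524 and 521 RPKM in FxrKO livers and 194, 175, 200 and 140 RPKM in Bcl6LKOFxrKO livers. The mean of the sum in Bcl6LKOFxrKO livers was 36.3% of that in FxrKO livers, or 32.6% when scaled by total counts alone. Of the difference of 311 RPKM, *Slco1b2* made up 79.6%, *Slco1a1* 21.1% and *Slco2b1* 3.53%, offset by -3.58% from *Slco2a1* and -0.731% from *Slco1a4*. *Slco1b2* held 71.4% ± 1.72 of the sum in FxrKO and 56.4% ± 4.84 in Bcl6LKOFxrKO livers, and *Slco1a1* 13.5% ± 1.64 and 0.209% ± 0.092 (SD, n = 4). The share of *Slco1a4* went from 3.32% ± 0.931 to 10.5% ± 2.36 and that of *Slco2a1* from 2.53% ± 0.582 to 13.4% ± 2.83 (SD, n = 4). These are levels of mRNA and shares of a falling sum, and no test was made of them.

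**Figure D3:**
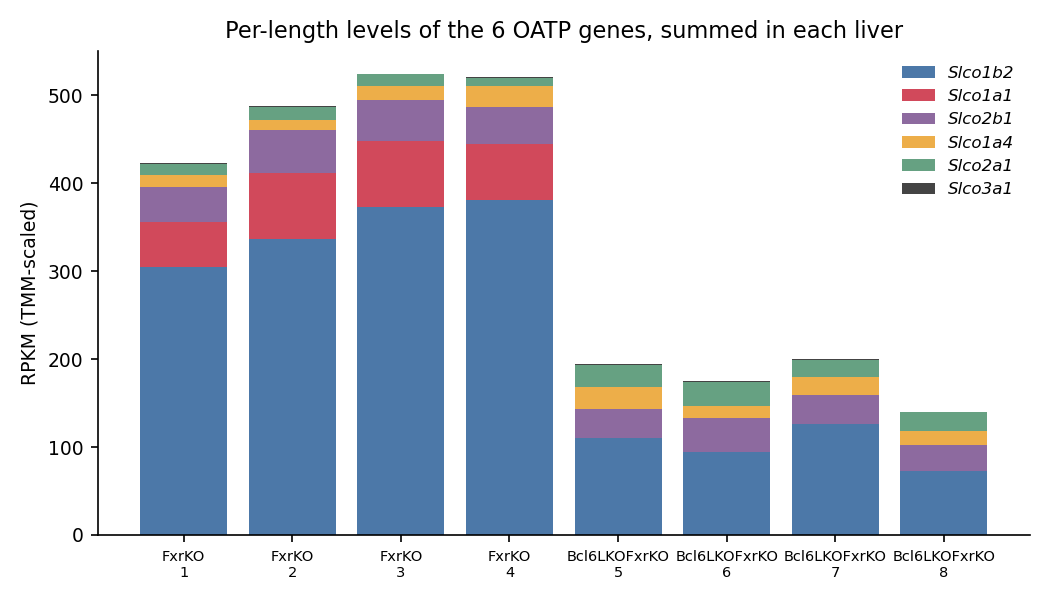
Per-length levels (RPKM, vertical axis from 0) of the 6 OATP genes stacked for each liver, FxrKO livers 1 to 4 and Bcl6LKOFxrKO livers 5 to 8. The bars reach 423 to 524 RPKM in FxrKO and 140 to 200 RPKM in Bcl6LKOFxrKO livers, where the *Slco1a1* segment is too thin to be seen.

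Ratios of 2 genes within a liver need no scaling between libraries, and transcript length cancels from their difference between genotypes. The log2 ratio of *Slco1a4* to *Slco1a1* counts was -1.88, -2.75, -2.27 and -1.46 in FxrKO livers and 5.74, 4.37, 6.03 and 6.37 in Bcl6LKOFxrKO livers. It was negative in every FxrKO liver and positive in every Bcl6LKOFxrKO liver, and the means differed by 7.72. The log2 ratio of *Slco1a1* to *Slco1b2* was -2.32, -1.90, -2.04 and -2.31 against -7.68, -7.03, -8.41 and -8.28, a difference of -5.71. The ratio thus fell in all 4 Bcl6LKOFxrKO livers, although both genes fell. Both differences had an exact permutation p of 0.029 (two-sided, n = 4 per group), which stayed at 0.029 when adjusted over the 2 ratios. Here too this p follows from groups that do not overlap. The *Slco1a1* and *Slco1a4* transcripts are 80.1% identical where they align, but only 0.867% and 1.1% of their 100-base windows occur unchanged in another gene, and reads were kept only with 1 location. *Slco1b2* shares no such window.

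The *Slco1* genes lie together on chromosome 6, from 141524354 to 142322981. Within 500 kb of that span the table held 23 genes, of which 11 were tested. Besides *Slco1a1*, *Slco1a4* and *Slco1b2* these were 8 genes of other families, all on one side of the cluster. Of these 8, 3 rose, 0 fell and 5 were not called, beside 16.2% of all tested genes called higher and 13.5% called lower. *Kcnj8* and *Abcc9*, which encode the pore and the regulatory subunit of a vascular potassium channel, had log2 fold changes of 2.60 (SE 0.19) and 1.08 (SE 0.19). *Ldhb*, a lactate dehydrogenase subunit, had one of 1.49 (SE 0.37). Their adjusted p-values from edgeR were 5.11e-07, 0.00114 and 0.00861. *Gys2*, the liver glycogen synthase, had a log2 fold change of -0.83 (SE 0.29, adjusted p = 0.0592 from edgeR).

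**Figure D4:**
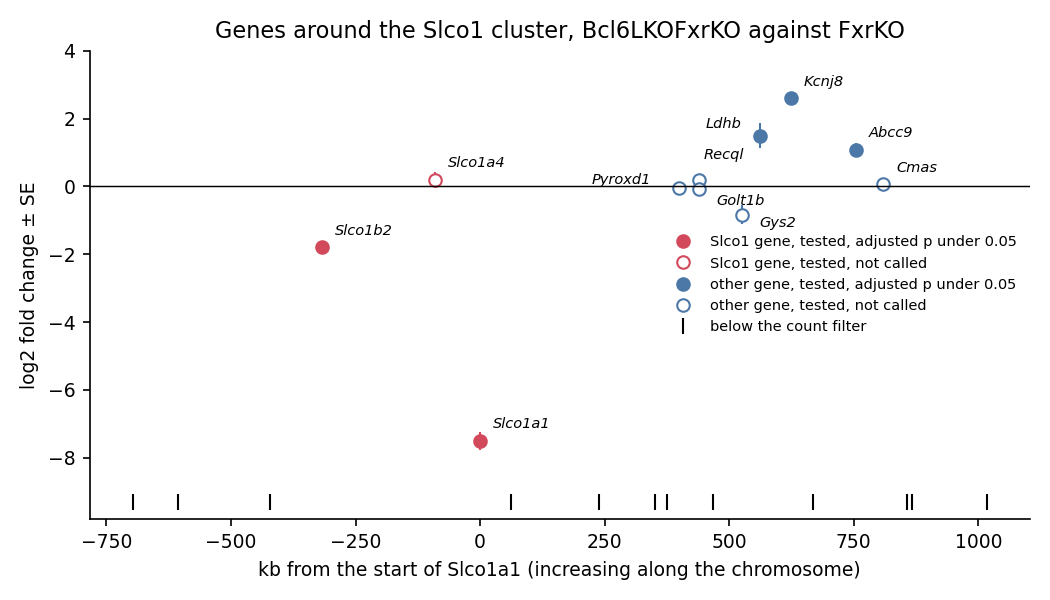
Log2 fold changes (± SE, vertical axis) of the 11 tested genes around the *Slco1* cluster by the distance of their start from that of *Slco1a1* (kb, horizontal axis). Filled points passed an adjusted p of 0.05, open points did not, and ticks at the bottom mark the genes that were below the count filter. *Slco1a1* at -7.50 and *Slco1b2* at -1.79 lie on both sides of *Slco1a4* at 0.19, and the 3 called genes of other families are above 0.

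For each member the 3 genes with the most similar profile were found among 9080 tested genes with a mean of at least 50 counts, predicted genes and pseudogenes left out, as the smallest root mean square difference, over the 8 livers, of log2 CPM relative to the FxrKO mean. For *Slco1a1* these were *Mup16*, *Mup18* and *Mup12*, genes of the major urinary proteins, at differences of 0.66, 0.73 and 0.74. Their log2 fold changes were -7.69, -7.47 and -8.51, and as near-identical copies they are counted with uncertainty. *Slco1b2* was closest to *Chpt1* (a cholinephosphotransferase), *Slc17a2* (a phosphate and anion transporter) and *Acsm3* (a medium-chain acyl-CoA synthetase), at 0.14, 0.15 and 0.16, with log2 fold changes of -1.81, -1.83 and -1.63. *Slco2a1* was closest to *Nav2*, *Tars* and *Wipi1* (0.17, 0.19 and 0.2), *Slco2b1* to *Rida*, *Emc2* and *Smchd1* (0.07 each), *Slco1a4* to *Akap13*, *Ehd3* and *Arsk* (0.16, 0.18 and 0.22) and *Slco3a1* to *Meiob*, *Ikbke* and *Zc3h12a* (0.13, 0.15 and 0.15).

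The fall of the main uptake members stood beside a fall of other carriers at both membranes of the hepatocyte. A list of 23 further transporters was made, chiefly of bile acids and organic anions. It also held *Abcg5* and *Abcg8* (sterol pumps), *Abcb4* (a phospholipid carrier) and *Slc47a1* (an organic cation carrier), which all fell. Of the 23, 19 were tested, 9 fell, 4 rose and 6 were not called. Of all tested genes, 13.5% were called lower and 16.2% higher. The list's median log2 fold change was -0.57, against 0.01 over all tested genes. *Slc10a1*, which encodes NTCP, went from 639 ± 125 to 144 ± 41.3 CPM (SD, n = 4) and had a log2 fold change of -2.15 (SE 0.21). Of the genes of this list, only *Slc10a1* had a larger fitted fall than that of *Slco1b2*, and none had one as large as that of *Slco1a1*. The canalicular sterol and drug pumps *Abcg2* and *Abcg8* fell, with log2 fold changes of -1.03 (SE 0.11) and -1.17 (SE 0.16), as did *Abcc3*, a basolateral export pump, with -0.91 (SE 0.14). *Abcc4*, another basolateral export pump, rose with a log2 fold change of 2.60 (SE 0.22), from 6.4 ± 0.863 to 39.1 ± 12.3 CPM (SD, n = 4). *Abcc5*, *Abcc1* and *Abcb1a*, export pumps of low level here, rose with 1.15, 0.94 and 1.16. *Abcb11*, the bile salt export pump, had a log2 fold change of -0.42 (SE 0.16, adjusted p = 0.0607 from edgeR), and *Abcc2*, the canalicular pump for bilirubin conjugates, one of 0.09 (SE 0.16, adjusted p = 0.699 from edgeR). *Slc22a6*, *Slc22a8*, *Slc51a* and *Slc51b* had no count in any liver.

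**Figure D5:**
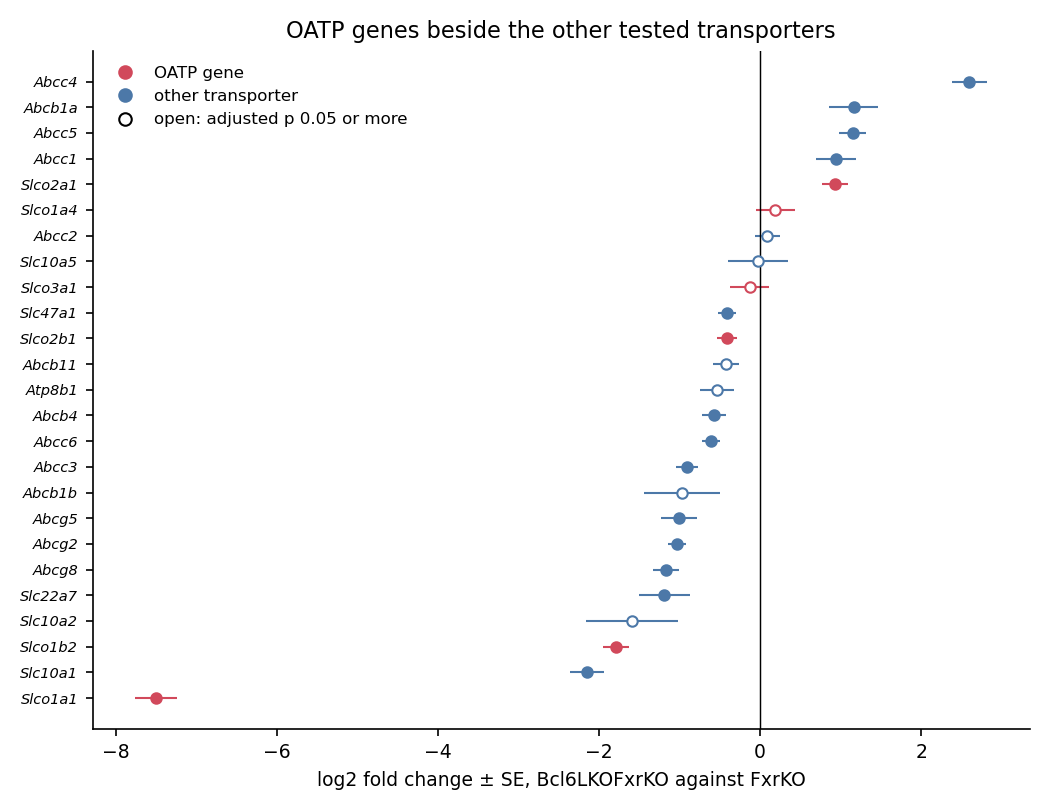
Log2 fold changes (± SE, horizontal axis) of the 6 OATP genes and the 19 other tested transporters, sorted by value, with open points where the adjusted p was 0.05 or more. *Slco1a1* stands at -7.50, *Slc10a1* at -2.15 and *Slco1b2* at -1.79 at one end, and *Abcc4* at 2.60 at the other.

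Of 22 tested regulators of OATP genes and of hepatocyte uptake, 6 rose and 6 fell, beside 16.2% and 13.5% of all tested genes, and the median log2 fold change was -0.04. Among nuclear receptors, *Nr0b2* (SHP) fell with a log2 fold change of -3.85 (SE 0.34), *Ppara* with -0.99 (SE 0.17), *Rxra* with -0.60 (SE 0.13) and *Nr1i3* (CAR) with -0.64 (SE 0.20, adjusted p = 0.0338 from edgeR). *Cebpa*, a hepatocyte factor, fell with -0.70 (SE 0.15). *Nr1i2* (PXR), known for its action on *Slco1a4*, had a log2 fold change of -0.27 (SE 0.15, adjusted p = 0.197 from edgeR). The receptors of the growth hormone and prolactin family rose: *Prlr* with 3.79 (SE 0.17) and *Ghr* with 2.27 (SE 0.15). *Socs2* rose with a log2 fold change of 1.67 (SE 0.47, adjusted p = 0.0318 from edgeR). *Stat5a*, *Stat5b* and *Jak2* were not called, with -0.1, -0.06 and 0.22. *Cux2*, a repressor found mainly in female liver, rose from 1.89 ± 2.08 to 87.3 ± 12.3 CPM (SD, n = 4), and *Keap1*, the NRF2 inhibitor, and *Nfe2l2*, the gene of NRF2, each rose with a log2 fold change of 0.38 (SE 0.11 and 0.13). *Nr1h4*, the gene of FXR, was still counted, at 60 ± 2.46 and 43.5 ± 3.69 CPM (SD, n = 4), and fell with a log2 fold change of -0.46 (SE 0.10, adjusted p = 0.00497 from edgeR). Counts over the whole gene do not show whether the deleted part was present.

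The rise of the prostaglandin carrier *Slco2a1* was set beside 14 tested genes of prostaglandin handling, of which 5 rose, 3 fell and 6 were not called, beside 16.2% of all tested genes called higher and 13.5% called lower. *Ptges*, a prostaglandin E synthase, *Cbr1*, a carbonyl reductase, and *Hpgds*, a prostaglandin D synthase, rose with log2 fold changes of 2.69 (SE 0.28), 1.48 (SE 0.13) and 1.61 (SE 0.39). *Abcc4*, which also exports prostaglandins, had the smallest adjusted p of those that rose. *Hpgd*, the dehydrogenase that degrades prostaglandins after uptake, fell from 90.6 ± 16.8 to 44 ± 4.97 CPM (SD, n = 4), a log2 fold change of -1.04 (SE 0.14). *Ptges3* and *Ptgr2* fell with -0.58 and -0.40. Thus *Slco2a1* and *Hpgd* moved in opposite directions in whole liver, and whether they did so in the same cells was not tested.

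Of 12 tested genes of bilirubin handling, 2 rose, 2 fell and 8 were not called, a share close to the background of 29.7%. *Gstm1* and *Gsta1*, glutathione transferases that bind bilirubin or its relatives, rose with log2 fold changes of 1.13 (SE 0.17) and 2.83 (SE 0.44), and belong to families of near-identical copies. *Abcc3* and *Hmox2*, the constitutive heme oxygenase, fell with -0.91 and -0.35.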

How the data were processed

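Liver RNA of 4 FxrKO and 4 Bcl6LKOFxrKO males was sequenced as 100 bp single-end reads. The authors' alignment used STAR 2.5.2 and the mm10 genome, with multi-mapping reads (more than 1 location) and reads with over 4 mismatches dropped. The deposited values are counts of reads on exons for each gene, made with HOMER 4.10 and not normalized, so near-identical copies lose shared reads. The table's comparison is between separate livers with no stated pairing. Total counts were 7586241 to 11839503 per liver.

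Counts were fitted in R 4.3.3 with edgeR 4.0.16 (filterByExpr, TMM, robust quasi-likelihood), with Benjamini-Hochberg adjustment over 12340 genes, and calls were made at an adjusted p under 0.05. SEs are the log2 fold change divided by the root of its F statistic, and 95% limits use the fit's degrees of freedom. CPM and RPKM use TMM factors. Mean CPM of the members, ratios (0.5 added to each count) and marker sums were tested by exact permutation. Alternatives were DESeq2 1.42.0, limma 3.58.1 (voom), other scalings, filters and pseudocounts, and each liver left out. The fits were tested on simulated data.

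The OATP genes, the lists and the tests were chosen with earlier results of these data known. Genes named were the 6 members, *Bcl6* and *Nr1h4*, up to 4 called genes of each list in each direction by adjusted p, a set of transporters and regulators, of which 1 is not reported here, called neighbours of the *Slco1* genes and 3 genes of like profile per member. *Gys2*, *Nfe2l2*, *Socs2*, *Stat5a*, *Stat5b*, *Jak2*, *Abcg5*, *Abcb4*, *Slc47a1*, *Gm6614*, *Gm15635*, single markers and *Slco1c1* were named after their values were seen. Protein sequences and a promoter of *Slco3a1* were not used here.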

Additional observations from a re-analysis of the deposited data

How the results depend on the processing

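Of 89 values of the 6 OATP genes under the alternatives, 85 kept their direction and call, 3 lost the call and 1 changed sign. The calls lost were those of *Slco2b1* without 1 liver (log2 fold change between -0.50 and -0.34 over the 8 livers left out), and the sign that changed was that of *Slco3a1* without FxrKO liver 1 (0.03, lowest -0.24), which was not called in any setting. *Slco1a1* could not be given at 10 or more counts in every liver, since one liver had 8. With 1 liver left out, regulators called higher were 3 to 6 (6 with all livers), bilirubin genes called higher 2 to 4 and lower 1 to 2. Over all alternatives, the listed transporters called lower were 8 to 13, against 9 in the results above. Regulators called lower were 4 to 8 there, against 6 in the results above. Prostaglandin genes called higher were 8 with no filter and 3 at 10 or more counts in every liver. *Ptges* and *Hpgds*, at 0.537 and 0.322 CPM in FxrKO liver 3, did not pass that stricter filter. Bilirubin genes called higher were 1 without the 50 most counted genes and 4 by DESeq2, and 1 was called lower at 10 or more counts. Scaled by total counts alone, 2949 genes were called lower against 1665. The cause of the other changes was not tested, beyond the tests run on fewer genes or livers. The 2 ratios kept their direction with each other pseudocount and each liver left out, and the summed level, recomputed with total counts alone, was lower in Bcl6LKOFxrKO livers there too. The labels state no pairing and give the genotypes no shared replicate number, so no paired analysis was made. Low counts limit *Slco3a1* and, in Bcl6LKOFxrKO livers, *Slco1a1*. The labels name separate livers, and nothing was analysed here beyond mRNA.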

Other observations

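Of the 9 other *Slco* genes, 4 had no count in any liver and 8 had at most 3 counts in each. The exception was *Slco1c1*, a thyroid hormone carrier of the blood-brain barrier that lies beside *Slco1b2*, with 4, 3, 5 and 5 counts in FxrKO livers 1 to 4 and 0, 0, 1 and 0 in Bcl6LKOFxrKO livers 5 to 8. The predicted gene *Gm6614*, whose start is 61.8 kb from that of *Slco1a1* within the cluster, had 5, 4, 4 and 3 counts in FxrKO livers and 0 in each Bcl6LKOFxrKO liver. These counts are near or under the floor of 3, were not tested, and were picked out after their values were seen.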
